A study of Mus musculus with 24 samples.

Results

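Matrix metalloproteinases (MMPs), the ADAMTS proteases, their ADAMTS-like relatives and the tissue inhibitors of metalloproteinases (TIMPs) were examined as 1 gene family system in mouse heart. Genes were taken by symbol from a table of 25229 gene symbols, and 50 rows carried a name of the 4 families. Of these, 38 had a mean of at least 5 counts per library and are described here: 13 MMP, 16 ADAMTS, 5 ADAMTS-like and 4 TIMP genes. The other 12 were below that level, and 3 of them, Mmp1a, Mmp7 and Mmp20, had no count in any library. The smallest mean kept was 7.67 counts, for Adamts19, and the largest left out was 3.21 counts, for Mmp27. All 38 also passed the filter on low counts, so none was lost from the tests.

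The tissue was left ventricle with septum from male C57BL/6 mice, and poly-A RNA was sequenced. Mice had either transverse aortic constriction (TAC), an operation that tightens the aorta so that the left ventricle pumps against a higher pressure, or sham surgery. After 1 week they breathed HEPA-filtered air or benzene at 50 ppm, on 5 days of each week and for 6 hours on such a day, over 6 weeks. This gave 4 groups with 6 libraries each: sham surgery in air (Sham/Air), sham surgery in benzene (Sham/Benzene), TAC in air (TAC/Air) and TAC in benzene (TAC/Benzene). The sources used here give neither the ages of the mice nor the degree of constriction. The labels do not tie a library to a named mouse, and the p-values thus reflect spread among libraries, which may be technical.

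MMPs are zinc-dependent proteases that cleave collagens, gelatin, proteoglycans and other matrix proteins, and most are secreted as inactive precursors. ADAMTS proteases are secreted relatives that trim procollagens, cut large proteoglycans or act on fibrillin microfibrils, and ADAMTS-like proteins share their ancillary domains but lack the protease domain. TIMPs bind the active site of MMPs, and Timp3 also blocks several ADAM and ADAMTS enzymes. In the pressure-loaded heart these genes are studied as part of the turnover of the fibrotic matrix.

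Levels are given in CPM, a gene's count divided by the scaled library size and expressed per mega-count. Differences are log2 fold changes ± SE from edgeR's quasi-likelihood test, with p-values adjusted by Benjamini-Hochberg over all 13571 genes tested and a call made under 0.05. Total counts ran from 4170660 to 14632231 per library. The lowest was that of Sham/Air replicate 1. Over the tested genes its Spearman correlation with any other library was 0.852 to 0.913, while the remaining 23 correlated at 0.963 to 0.996 among themselves. Its log2 ratio to the median of the other 5 Sham/Air libraries followed transcript GC content, with a Pearson correlation of -0.703 across 13374 genes and -0.637 across the 38 genes described here, which are points from the same libraries and not independent. Adamts10 and Adamtsl4, with GC contents of 58.5% and 60.1%, were lower there by log2 ratios of -4.35 and -2.91, and Adamts5, with 43.7%, was higher by 1.25. Values without this library are given beside a call that it changes and beside a printed estimate that moves by over 1.5 times without it. The labelled tissue carried its own markers: 7 ventricular cardiomyocyte genes summed to between 39500 and 87700 CPM in every library, and 3 atrial genes to at most 216 CPM. Summed markers of lung epithelium were at 7.1 to 11 CPM in the Sham/Air libraries and at most 2.15 CPM in any other library. Of 2 tested markers, 2 were lower for TAC in air, 2 for benzene in sham mice and 1 for TAC in benzene. In the same order, 7.35%, 0.0147% and 7.97% of all genes were lower. The part of these markers in the results was not tested.

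TAC raised more of these genes than it lowered, in air and in benzene. In air 14 of 38 rose and 2 fell, where 8.81% of all genes tested rose and 7.35% fell. In benzene 14 of 38 rose and 5 fell, beside 8.67% and 7.97% of all genes. The median log2 fold change of the 38 was 0.34 in air and 0.15 in benzene, while the median of all genes was -0.0134 and -0.00454 in the same order. There were 13 genes higher in both comparisons, namely Timp1, Timp2, Mmp2, Mmp3, Mmp14, Mmp23, Adamts1, Adamts2, Adamts4, Adamts8, Adamts20, Adamtsl2 and Adamtsl5, and Timp4 and Adamts7 were lower in both. Groups did not overlap for 12 genes higher in air (5.78% of all genes) and 0 lower (3.71%), and for 10 higher in benzene (7.62%) and 3 lower (6.31%). The 2 comparisons use different libraries, but the fit of all 24 libraries gives them a shared estimate of the spread. Their p-values are thus not independent, and leaving out a library of any group can move both. Without Sham/Air replicate 1, 16 were higher and 4 lower in air, and 15 higher and 6 lower in benzene. Calls over all genes grew as well. In air 1652 genes were then higher and 1517 lower, where the main fit had 1195 and 998. In benzene 1864 were higher and 1803 lower, where the main fit had 1176 and 1081.

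**Figure D1:**
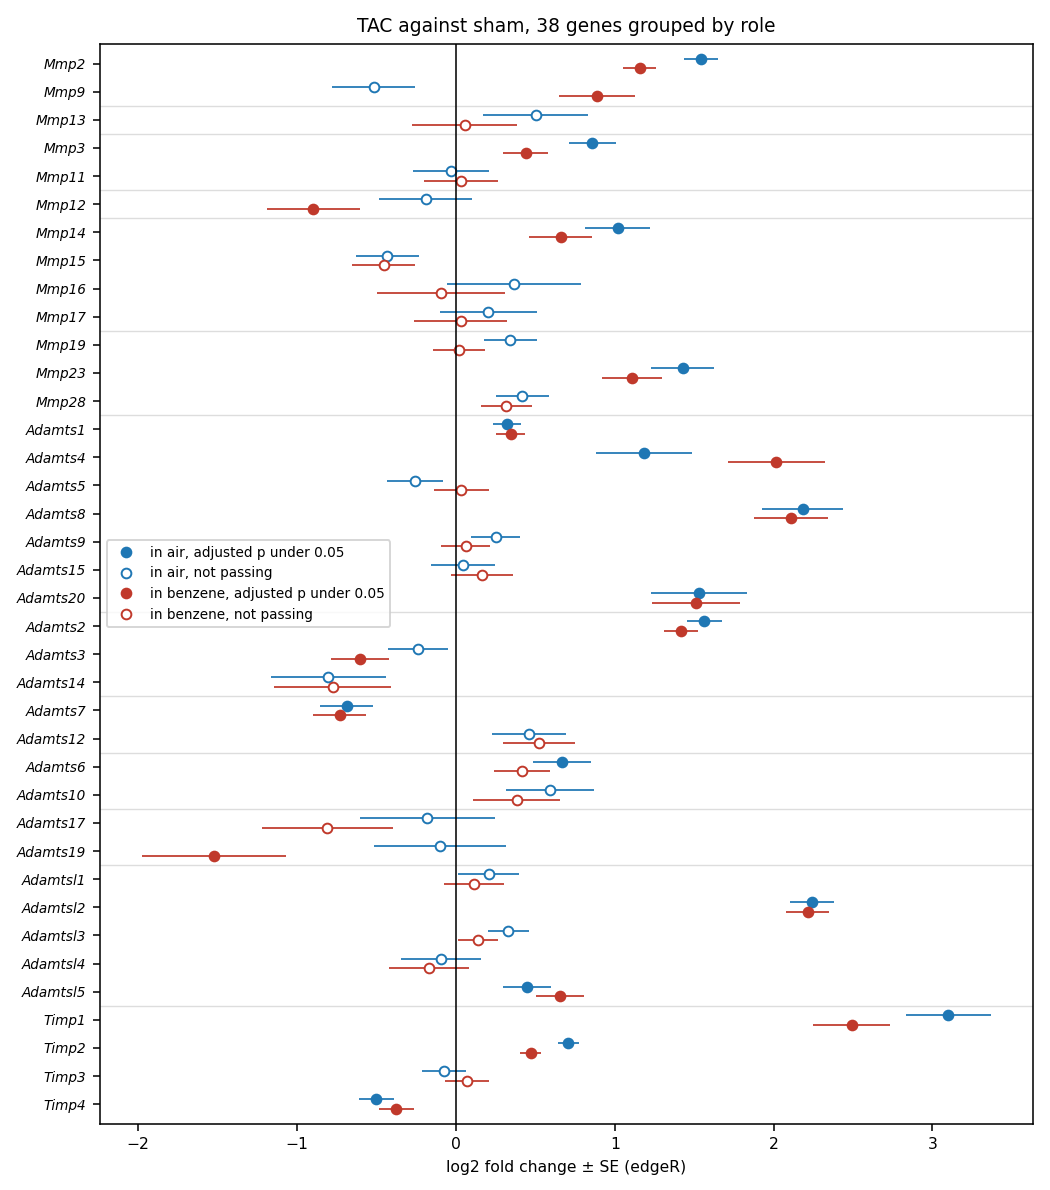
Log2 fold change of TAC against sham for each of the 38 genes, grouped by role from gelatinases at the top to TIMPs at the bottom, in air (blue) and in benzene (red). Points are edgeR estimates, bars are standard errors, and filled points passed at an adjusted p under 0.05. Timp1 lies farthest to the right, at 3.10 in air and 2.49 in benzene, and Timp4 and Adamts7 lie to the left in both.

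The 4 inhibitors moved in different directions after TAC. Timp1, an inhibitor induced in many injured tissues, had the largest rise of all 38 genes. It ran from 0 to 2.98 CPM in Sham/Air (median 2.11) and from 10.8 to 23.02 CPM in TAC/Air (median 19.7), so that the lowest TAC library was above every sham library. In benzene it ran from 2.22 to 4.73 CPM after sham surgery (median 2.88) and from 16.2 to 21.5 CPM after TAC (median 18.1), again without overlap. The log2 fold change was 3.10 ± 0.27 in air (adjusted p = 2.91e-09) and 2.49 ± 0.24 in benzene (adjusted p = 2.05e-08). The value of 0 belonged to Sham/Air replicate 1, and without that library the change in air was 2.96.

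Timp2, which besides inhibiting MMPs helps Mmp14 to activate Mmp2, rose by a smaller step from a much higher level. Sham/Air libraries held 139 to 173 CPM (median 156) and TAC/Air libraries 248 to 265 CPM (median 258). Under benzene the range was 137 to 161 CPM in sham mice (median 147) and 200 to 219 CPM in TAC mice (median 207). Both pairs of groups were fully separated, with log2 fold changes of 0.71 ± 0.07 (adjusted p = 1.19e-08) and 0.47 ± 0.07 (adjusted p = 7.46e-06).

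Timp4, the TIMP known for its high expression in heart, fell. It ran from 33.8 to 62.8 CPM in Sham/Air (median 56.0) and from 35.5 to 41.0 CPM in TAC/Air (median 38.2), where Sham/Air replicate 1 alone lay below every TAC/Air library and the next lowest Sham/Air library had 53.5 CPM. In benzene the sham range of 48.5 to 68.2 CPM (median 57.5) lay above the TAC range of 39.7 to 47.9 CPM (median 43.8). The log2 fold change was -0.50 ± 0.11 in air (adjusted p = 0.00228), or -0.60 without Sham/Air replicate 1, and -0.37 ± 0.11 in benzene (adjusted p = 0.0200). The call in benzene ended without Sham/Benzene replicate 1 (adjusted p = 0.061) or without TAC/Benzene replicate 2 (adjusted p = 0.0524).

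Timp3, a matrix-bound inhibitor, was the most abundant TIMP and did not pass. Its median was 480 CPM in Sham/Air, 448 in Sham/Benzene, 542 in TAC/Air and 470 in TAC/Benzene. Sham/Air replicate 1 held 977 CPM and the next highest Sham/Air library 513. The log2 fold change was -0.08 ± 0.14 in air and 0.07 ± 0.14 in benzene. Without Sham/Air replicate 1 the estimate in air turned positive, at 0.16 (adjusted p = 0.0544).

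**Figure D2:**
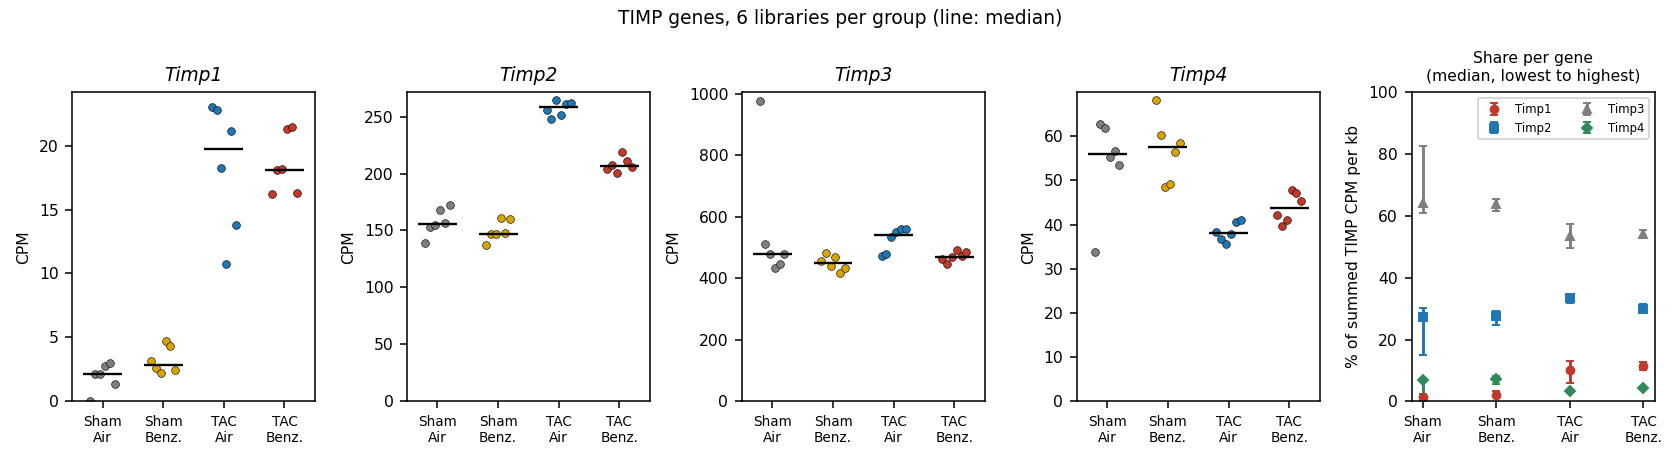
CPM of Timp1, Timp2, Timp3 and Timp4 in every library (points, 6 per group; line, median), and at right the share of each gene in the summed TIMP level per kilobase of transcript (symbol, median; bar, lowest to highest library). All 12 TAC libraries lie above all 12 sham libraries for Timp1 and Timp2. Timp3 in Sham/Air replicate 1 is the single point near 977 CPM.

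Set on a common scale of CPM per kilobase of the longest annotated transcript, the make-up of the TIMP pool differed between sham and TAC hearts. Timp1 made up 0 to 2.24% of the pool in Sham/Air (median 1.49%) and 5.99 to 12.9% in TAC/Air (median 10.3%), and the ranges in benzene were 1.74 to 3.41% and 9.99 to 12.8%. Timp3 had the largest share in every group, with a median of 64.2% in Sham/Air, 63.9% in Sham/Benzene, 53.6% in TAC/Air and 54.0% in TAC/Benzene. The share of Timp4 had a median of 6.77% in Sham/Air and 3.37% in TAC/Air, and of 7.12% and 4.36% in the benzene groups. The summed TIMP level had a median of 158 CPM per kilobase in Sham/Air, 149 in Sham/Benzene, 208 in TAC/Air and 183 in TAC/Benzene, and the summed level of the 13 MMP genes 73.2, 76.4, 126 and 114 in the same order. The ratio of the TIMP sum to the MMP sum had a median of 2.21 in Sham/Air, 1.92 in Sham/Benzene, 1.71 in TAC/Air and 1.61 in TAC/Benzene. In Sham/Air it spanned 1.90 to 8.37, the highest value being that of replicate 1, and the TAC/Air range was 1.51 to 1.81. These sums are descriptions and were not tested.

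Among the gelatinases, Mmp2 and Mmp9 followed different patterns. Mmp2, the constitutive gelatinase of fibroblasts, was the most abundant MMP in sham hearts per kilobase, at a mean of 23.3 CPM per kilobase in Sham/Air, next to 21.5 for the membrane-type gene Mmp15, and the ranges of the 2 genes overlapped. Its level ran from 43.5 to 80.0 CPM in Sham/Air (median 76.98) and from 199 to 227 CPM in TAC/Air (median 209). In benzene it ran from 70.6 to 92.0 CPM after sham surgery (median 82.2) and from 173 to 192 CPM after TAC (median 181). No TAC library overlapped a sham library, and the log2 fold change was 1.54 ± 0.11 in air (adjusted p = 2.71e-11) and 1.16 ± 0.10 in benzene (adjusted p = 5.11e-09).

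Mmp9, a gelatinase stored in neutrophil granules and also made by macrophages, did not pass in air and rose in benzene. Sham/Air libraries held 1.14 to 2.89 CPM (median 2.20) and TAC/Air libraries 0.996 to 1.79 CPM (median 1.49), with a log2 fold change of -0.52 ± 0.26 (adjusted p = 0.195). The benzene groups held 0.956 to 2.66 CPM after sham surgery (median 1.49) and 1.66 to 4.17 CPM after TAC (median 3.22), and 4 of 6 TAC libraries were above the highest sham library. That change was 0.89 ± 0.24 (adjusted p = 0.00970). The gene averaged 22.6 counts per library, so these levels rest on few reads.

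The membrane-type MMPs sit on the cell surface, and Mmp14 is the main activator of pro-Mmp2. Mmp14 was the member of this group that rose. It ran from 5.97 to 27.1 CPM in Sham/Air (median 20.8) and from 32.04 to 46.1 CPM in TAC/Air (median 40.6), without overlap and with a log2 fold change of 1.02 ± 0.20 (adjusted p = 7.29e-04), or 0.86 without Sham/Air replicate 1. In benzene the ranges of 15.7 to 31.4 CPM (median 20.6) and 28.7 to 38.5 CPM (median 35.1) overlapped in part, and the change of 0.66 ± 0.20 (adjusted p = 0.0226) did not pass without Sham/Benzene replicate 2 (adjusted p = 0.0653) or without TAC/Benzene replicate 1 (adjusted p = 0.0524).

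Mmp15, the other abundant membrane-type gene, had lower medians after TAC and did not pass in the main edgeR fit. Its median was 122 CPM in Sham/Air and 84.8 in TAC/Air, and 112 in Sham/Benzene and 82.3 in TAC/Benzene, and in benzene every TAC library was below every sham library. The log2 fold change was -0.43 ± 0.20 in air (adjusted p = 0.155) and -0.45 ± 0.20 in benzene (adjusted p = 0.135). Sham/Air replicate 1 had 33.8 CPM, the lowest value of all 24 libraries. Without it the changes passed, at -0.61 (adjusted p = 8.27e-05) in air and -0.45 (adjusted p = 0.0012) in benzene. They also passed with all libraries under limma-voom, at -0.61 (adjusted p = 4.10e-05) and -0.51 (adjusted p = 1.16e-04), and with offsets for GC content and length, at -0.62 (adjusted p = 4.78e-09) and -0.60 (adjusted p = 5.80e-09). A fit of the benzene groups alone called Mmp15 too, at -0.46 (adjusted p = 9.89e-04). Mmp16 and Mmp17, at medians of at most 0.984 and 4.11 CPM, did not pass in either comparison.

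Mmp23, a membrane-anchored MMP with an atypical domain structure, rose in both. It ran from 1.42 to 8.30 CPM in Sham/Air (median 7.20) and from 13.6 to 20.4 CPM in TAC/Air (median 17.4). The benzene ranges were 4.61 to 9.87 CPM (median 7.47) and 15.1 to 17.7 CPM (median 16.3). Sham and TAC libraries did not overlap, and the log2 fold change was 1.43 ± 0.20 in air (adjusted p = 6.84e-06) and 1.11 ± 0.19 in benzene (adjusted p = 1.06e-04). Mmp19 and Mmp28 did not pass, with changes of 0.34 ± 0.17 and 0.42 ± 0.17 in air and 0.02 ± 0.16 and 0.32 ± 0.16 in benzene.

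Mmp3 (stromelysin-1, which cleaves proteoglycans and activates other pro-MMPs), Mmp12 (macrophage elastase) and Mmp13 (the main interstitial collagenase of mice) are neighbours on chromosome 9. In the RefSeq promoter table, which held 24 of the 38 genes, these were the 3 (12.5%) with the AP-1 motif TGANTCA in the 250 bases before a start site. The motif is its own reverse complement, so each match holds on both strands. It was present for 7.82% of all genes in that table and 5.60% of the genes tested. The last 100 bases before the start are shown for the 3, from GRCm38.p6 and the plus strand, at chr9:7445722-7445821 for Mmp3, chr9:7347274-7347373 for 1 of 2 listed starts of Mmp12 and chr9:7272414-7272513 for Mmp13. Capitals mark the motif, whose first base lies 46, 44 and 35 bases before the start. The 250 bases before Timp1, at chrX:20869916-20870165 on the plus strand, are shown beside them as those of the gene with the largest change, and these letters hold no match.
Mmp3: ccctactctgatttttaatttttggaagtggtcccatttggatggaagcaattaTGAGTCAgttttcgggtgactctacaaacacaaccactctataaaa
Mmp12: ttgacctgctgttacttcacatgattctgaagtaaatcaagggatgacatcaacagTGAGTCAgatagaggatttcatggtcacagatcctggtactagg
Mmp13: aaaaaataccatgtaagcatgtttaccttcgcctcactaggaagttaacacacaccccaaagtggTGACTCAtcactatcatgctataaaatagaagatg
Timp1: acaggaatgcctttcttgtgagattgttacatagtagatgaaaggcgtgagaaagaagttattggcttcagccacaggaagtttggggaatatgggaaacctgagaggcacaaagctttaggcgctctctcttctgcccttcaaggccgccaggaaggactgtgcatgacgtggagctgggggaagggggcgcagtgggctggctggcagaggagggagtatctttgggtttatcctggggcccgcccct

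The 3 genes with the motif did not move together. Mmp3 ran from 5.68 to 11.2 CPM in Sham/Air (median 7.87) and from 12.1 to 17.01 CPM in TAC/Air (median 15.3), without overlap and with a log2 fold change of 0.86 ± 0.15 (adjusted p = 1.52e-04). In benzene the sham range of 9.51 to 18.4 CPM (median 12.9) overlapped the TAC range of 15.7 to 19.0 CPM (median 17.6), and the change was 0.44 ± 0.14 (adjusted p = 0.0311). That call ended, at adjusted p = 0.0516 to 0.0882, without Sham/Benzene replicate 2, 4, 5 or 6 or TAC/Benzene replicate 1, 3, 4, 5 or 6 in turn.

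Mmp12 did not pass in air (-0.19 ± 0.30) and was lower in benzene. There it ran from 0.864 to 1.81 CPM in sham mice (median 1.28) and from 0.421 to 1.23 CPM in TAC mice (median 0.646), and 5 of 6 TAC libraries were below the lowest sham library. The change of -0.90 ± 0.29 (adjusted p = 0.0340) rests on a mean of 11.4 counts per library. It did not pass, at adjusted p = 0.0538 to 0.0854, without Sham/Benzene replicate 1, 3 or 6 or TAC/Benzene replicate 1, 3, 5 or 6 in turn, nor under 3 of 8 other settings. Mmp13, at 0.288 to 2.10 CPM over all libraries, had changes of 0.50 ± 0.33 in air and 0.06 ± 0.33 in benzene that did not pass. Mmp11, a stromelysin of tissue remodelling, was at -0.03 ± 0.24 (-0.15 without Sham/Air replicate 1) and 0.03 ± 0.23, and its exons overlap those of the more abundant gene Chchd10 on the other strand.

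**Figure D3:**
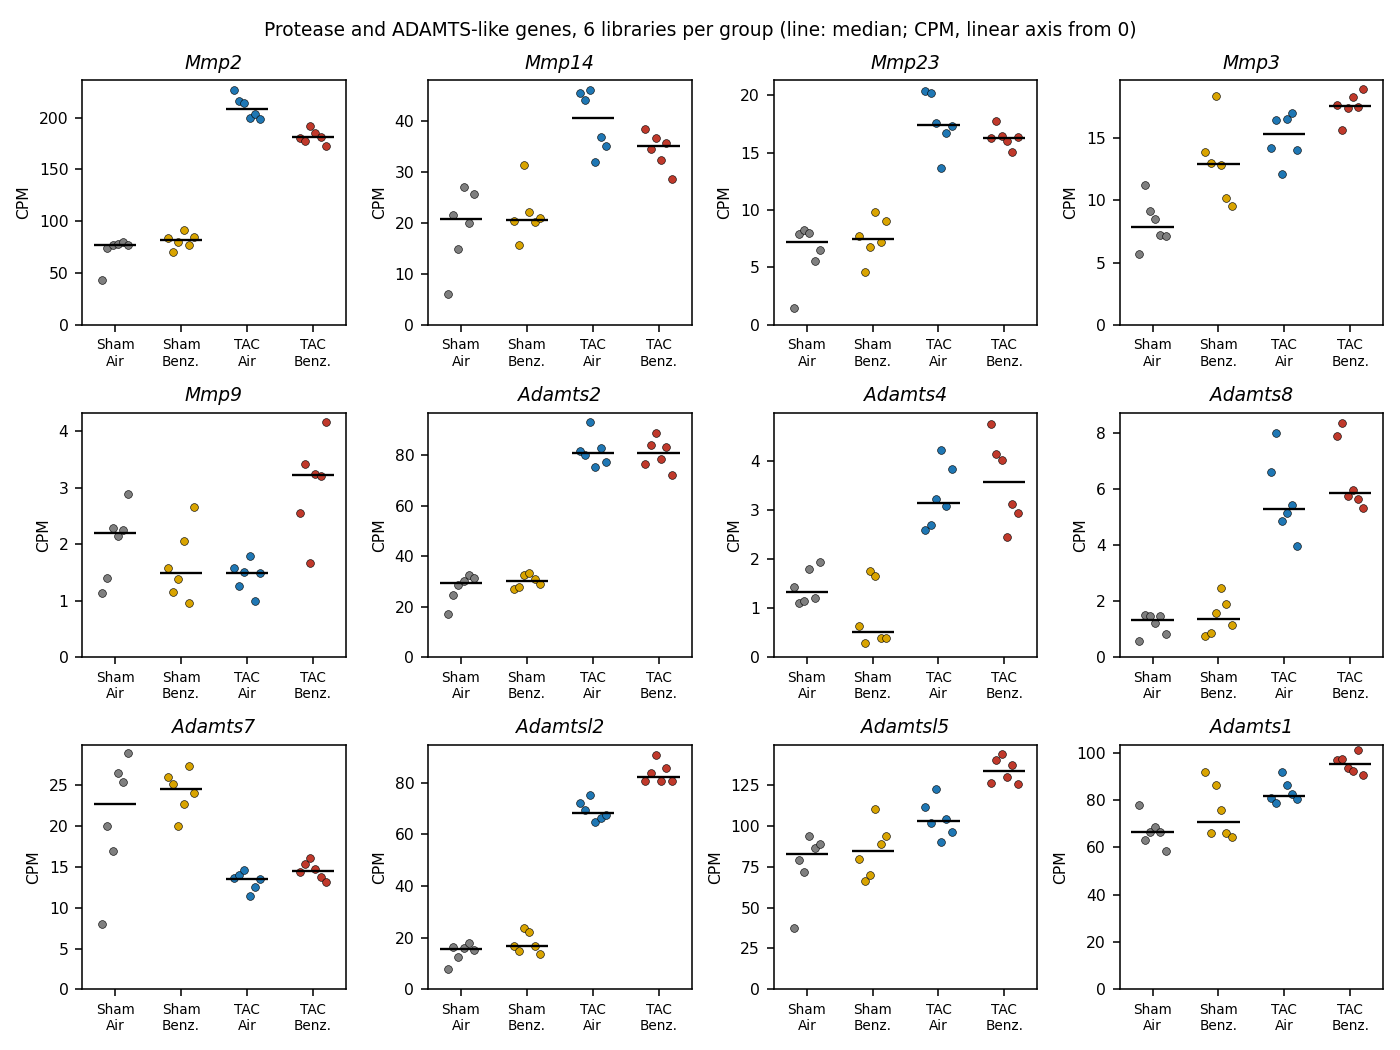
CPM of 12 MMP, ADAMTS and ADAMTS-like genes in every library (points, 6 per group; line, median; every axis starts at 0). TAC libraries lie above sham libraries for Mmp2, Mmp23, Adamts2, Adamts4, Adamts8 and Adamtsl2 in both exposures and below them for Adamts7 in benzene. Mmp9 is highest in TAC/Benzene, from 1.66 to 4.17 CPM.

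The ADAMTS proteoglycanases, which cut versican, aggrecan and related large proteoglycans, had 4 of 7 genes higher in air and the same number in benzene. Of all genes tested, 8.81% and 8.67% were higher in the same order. Adamts8 had the largest edgeR estimates of the ADAMTS proteases, although in benzene limma-voom put Adamts4 higher, at 2.63 against 2.12. It ran from 0.568 to 1.504 CPM in Sham/Air (median 1.33) and from 3.98 to 7.99 CPM in TAC/Air (median 5.29). In benzene it ran from 0.738 to 2.47 CPM (median 1.36) and from 5.32 to 8.35 CPM (median 5.87). The groups were apart in both exposures, at 2.18 ± 0.26 in air (adjusted p = 5.42e-07) and 2.11 ± 0.23 in benzene (adjusted p = 1.60e-07).

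Adamts4, an aggrecanase induced by inflammatory signals, also separated sham from TAC in both. Its range was 1.10 to 1.93 CPM in Sham/Air (median 1.31), 2.59 to 4.21 CPM in TAC/Air (median 3.14), 0.288 to 1.76 CPM in Sham/Benzene (median 0.515) and 2.45 to 4.75 CPM in TAC/Benzene (median 3.57). The change was 1.18 ± 0.30 in air (adjusted p = 0.00715) and 2.02 ± 0.31 in benzene (adjusted p = 2.32e-05). The interaction, which tests the difference between these responses, was 0.83 ± 0.44 and did not pass.

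Adamts20, a protease related to Adamts9, rose from a low level. It ran from 0.284 to 0.887 CPM in Sham/Air (median 0.746) and from 1.32 to 3.21 CPM in TAC/Air (median 1.71), and in benzene from 0.555 to 1.37 CPM (median 0.695) and from 1.57 to 2.97 CPM (median 2.39). Neither pair of groups overlapped, and the changes were 1.53 ± 0.30 (adjusted p = 6.61e-04) and 1.51 ± 0.28 (adjusted p = 2.53e-04). Adamts1, the most abundant ADAMTS gene per kilobase in Sham/Air, changed by a smaller amount. Its level was 58.5 to 78.1 CPM in Sham/Air (median 66.4) and 78.7 to 91.9 CPM in TAC/Air (median 81.8), with a change of 0.32 ± 0.09 (adjusted p = 0.0128). In benzene it was 64.6 to 92.1 CPM (median 71.0) and 90.8 to 101 CPM (median 95.3), with a change of 0.34 ± 0.09 (adjusted p = 0.00720) and 5 of 6 TAC libraries above the highest sham library.

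Adamts5, Adamts9 and Adamts15, the other 3 proteoglycanases, did not pass by edgeR with all libraries. Adamts5 had medians of 45.9 CPM in Sham/Air and 46.0 in TAC/Air, and of 39.4 and 41.5 in the benzene groups, while Sham/Air replicate 1 stood at 104 CPM. Its change in air was -0.26 ± 0.18, and 0.01 without that library. Adamts9 had changes of 0.25 ± 0.16 and 0.06 ± 0.15. Its highest value was 60.8 CPM in Sham/Benzene replicate 3, and without that library the change in benzene passed at 0.30 (adjusted p = 0.0455). Limma-voom with all libraries called it in both exposures, at 0.31 (adjusted p = 0.0396) and 0.29 (adjusted p = 0.0283). Adamts15 had changes of 0.05 ± 0.20 and 0.17 ± 0.19, and the former was -0.08 without Sham/Air replicate 1.

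The procollagen N-proteinases remove the amino-terminal propeptide of fibrillar procollagens, and of the 3 genes Adamts2 rose. It ran from 17.1 to 32.6 CPM in Sham/Air (median 29.3), 75.2 to 93.1 CPM in TAC/Air (median 80.9), 27.1 to 33.3 CPM in Sham/Benzene (median 30.0) and 72.0 to 88.7 CPM in TAC/Benzene (median 81.0). The TAC ranges lay well above the sham ranges, with changes of 1.56 ± 0.11 (adjusted p = 5.14e-11) and 1.42 ± 0.11 (adjusted p = 2.46e-10). Adamts3 did not pass in air (-0.24 ± 0.19, or -0.09 without Sham/Air replicate 1). In benzene it was at 5.42 to 9.60 CPM in sham mice (median 7.89) and at 3.88 to 6.96 CPM in TAC mice (median 4.97), with 5 of 6 TAC libraries below the lowest sham library. The change was -0.61 ± 0.18 (adjusted p = 0.0225), and the call ended without Sham/Benzene replicate 2 (adjusted p = 0.0584) or 3 (adjusted p = 0.0517) or TAC/Benzene replicate 1 (adjusted p = 0.0506) or 5 (adjusted p = 0.0595). Adamts14 had changes of -0.80 ± 0.36 and -0.78 ± 0.37 that did not pass. Sham/Air replicate 1 had no Adamts14 count, and without it the change in air was -0.95 (adjusted p = 0.0248).

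Adamts7 and Adamts12 share cartilage oligomeric matrix protein as a substrate. Adamts7 was the ADAMTS gene lower in both exposures. It ran from 7.96 to 28.9 CPM in Sham/Air (median 22.7) and from 11.5 to 14.6 CPM in TAC/Air (median 13.6), where Sham/Air replicate 1 alone lay below every TAC/Air library. In benzene the sham range was 20.1 to 27.3 CPM (median 24.6) and the TAC range 13.1 to 16.1 CPM (median 14.6), without overlap. The changes were -0.69 ± 0.17 (adjusted p = 0.00502), or -0.83 without Sham/Air replicate 1, and -0.73 ± 0.17 (adjusted p = 0.00234). A fit of Sham/Air and TAC/Air alone ended the call in air (adjusted p = 0.0799). Adamts12 did not pass, at 0.46 ± 0.23 and 0.52 ± 0.23, and the latter was 0.68 (adjusted p = 0.0401) without Sham/Benzene replicate 3.

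Adamts6 and Adamts10, which act on fibrillin microfibrils, had positive estimates. Adamts6 was at 5.58 to 9.94 CPM in Sham/Air (median 6.33) and 8.72 to 12.2 CPM in TAC/Air (median 10.3), with 4 of 6 TAC libraries above the highest sham library, and it rose by 0.67 ± 0.18 (adjusted p = 0.0109). In benzene it had medians of 5.70 and 8.20 CPM and a change of 0.42 ± 0.18 (adjusted p = 0.121), or 0.63 (adjusted p = 0.00389) without Sham/Benzene replicate 3. The interaction of -0.25 ± 0.25 did not pass. Adamts10 was at 0.59 ± 0.28 and 0.38 ± 0.27 without passing. Sham/Air replicate 1 held 0.852 CPM of Adamts10 and the next lowest Sham/Air library 23.8, and without it the changes were 0.37 (adjusted p = 0.0159) in air and 0.38 (adjusted p = 0.0075) in benzene.

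Adamts17 and Adamts19, with less known substrates, averaged 8.79 and 7.67 counts per library. Adamts19 did not pass in air (-0.10 ± 0.42, or -0.23 without Sham/Air replicate 1) and was lower in benzene. There it ran from 0.398 to 1.69 CPM in sham mice (median 0.938) and from 0.0726 to 0.588 CPM in TAC mice (median 0.302), and 4 of 6 TAC libraries were below the lowest sham library. The change of -1.52 ± 0.45 (adjusted p = 0.0202) did not pass without Sham/Benzene replicate 1 (adjusted p = 0.0622) or without TAC/Benzene replicate 2 (adjusted p = 0.0589). Adamts17 was at -0.18 ± 0.43 (-0.31 without Sham/Air replicate 1) and -0.81 ± 0.41 without passing.

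Of the 5 ADAMTS-like genes, Adamtsl2 and Adamtsl5 rose in both exposures. Adamtsl2 encodes a fibrillin-binding protein linked to TGF-beta signalling. It ran from 7.96 to 18.0 CPM in Sham/Air (median 15.5), 64.7 to 75.2 CPM in TAC/Air (median 68.3), 13.8 to 23.8 CPM in Sham/Benzene (median 16.7) and 80.4 to 90.5 CPM in TAC/Benzene (median 82.3). No TAC library came near the sham range, and the changes were 2.24 ± 0.14 (adjusted p = 5.18e-12) and 2.21 ± 0.14 (adjusted p = 3.92e-12).

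Adamtsl5, which also binds fibrillin, had a smaller change. It ran from 37.2 to 93.8 CPM in Sham/Air (median 82.7), 90.3 to 123 CPM in TAC/Air (median 103), 66.3 to 110 CPM in Sham/Benzene (median 84.3) and 125 to 144 CPM in TAC/Benzene (median 133). The benzene groups were apart and the air groups overlapped. The change in benzene was 0.66 ± 0.15 (adjusted p = 0.00256). In air it was 0.45 ± 0.15 (adjusted p = 0.0440), and it was 0.31 without Sham/Air replicate 1 (adjusted p = 0.0283). The call in air was lost in 16 of 24 fits that left out 1 library (adjusted p = 0.0520 to 0.11). These were the fits without Sham/Air replicate 2 or 3, Sham/Benzene replicate 1, 5 or 6, TAC/Air replicate 1, 2, 3, 5 or 6, or any of the 6 TAC/Benzene libraries. Only 5 of 8 other settings kept that call, with estimates down to 0.24 and adjusted p up to 0.157. Adamtsl1, Adamtsl3 and Adamtsl4 did not pass in the main edgeR fit. Adamtsl4 was at -0.09 ± 0.25 in air, or -0.30 without Sham/Air replicate 1, and without Sham/Air replicate 1 Adamtsl3 passed in air at 0.43 (adjusted p = 0.00703).

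The listed fibroblast markers, Pdgfra, Tcf21, Col1a1, Col1a2, Dcn, Lum, Dpt and Postn, had a higher sum after TAC in each exposure. Col1a1 and Col1a2 are matrix genes that are also listed below as protease substrates, and abundant genes weigh most in the sum. The summed level of 8 fibroblast markers was 1460 to 3400 CPM in Sham/Air libraries, the highest being replicate 1, and 1510 to 1880 CPM under benzene after sham surgery. After TAC it was 3420 to 4160 CPM with air and 3240 to 3760 CPM with benzene. Of the 8 markers, 5 were higher after TAC in air and 4 in benzene, and the rest did not pass. Of 7 ventricular cardiomyocyte markers 5 were lower after TAC in each exposure. Summed smooth muscle and pericyte markers had medians of 1880, 1750, 1690 and 1570 CPM, and macrophage markers 675, 647, 745 and 658 CPM, in the same order of groups. Of 6 smooth muscle and pericyte markers 2 were lower in each exposure, and of 8 macrophage markers 2 were higher in air and 1 was lower in benzene. Over all genes tested, 8.81% were higher and 7.35% lower in air, and 8.67% and 7.97% in benzene. In bulk tissue a change in the number of cells of a type and a change in RNA per cell cannot be told apart. The part of these cell markers in the rises above was not tested.

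Other genes of matrix proteolysis, taken from lists of regulators and substrates, are given for context. Their counts stand beside 8.81% of all genes higher and 7.35% lower in air, and 8.67% and 7.97% in benzene. The median log2 fold change in air and in benzene was 0.40 and 0.23 for the plasminogen system and protease activators. It was 0.31 and 0.04 for membrane and clearance regulators, and 0.62 and 0.73 for procollagen and BMP-1 proteinases with related genes. For ADAM genes it was 0.21 and 0.33, and for cathepsins and serine proteases 0.15 and -0.04. Of 18 tested genes of protease substrates 13 were higher and 1 lower in each exposure, with a median log2 fold change of 1.45 in air and 1.41 in benzene. Those with the smallest p were Bgn, Col1a2, Fn1 and Comp. Comp, the substrate of Adamts7, was at 4.35 ± 0.24 and 3.42 ± 0.23, and Bgn, the gene of the small proteoglycan biglycan, at 1.78 ± 0.08 and 1.72 ± 0.08. The collagen gene Col1a2 was at 1.54 ± 0.07 and 1.31 ± 0.07, and the fibronectin gene Fn1 at 1.68 ± 0.08 and 1.57 ± 0.08. Ltbp1, which holds latent TGF-beta in the matrix, was the gene lower in both, at -0.37 ± 0.10 each, and is named after its values were seen.

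The list of the plasminogen system, whose protease plasmin can activate pro-MMPs, also held other protease activators. Of its 9 tested genes, 4 were higher in air, and 3 were higher and 1 lower in benzene. These counts include the activator genes Pcsk5, higher in air at 0.56, and Pcsk6, lower in benzene at -0.21. The protease inhibitor gene Serpine2 was at 0.82 ± 0.09 and 0.72 ± 0.09 (adjusted p = 1.28e-07 and 7.44e-07), and the tissue plasminogen activator gene Plat at 0.79 ± 0.10 and 0.52 ± 0.10. The list of procollagen and BMP-1 proteinases also held genes that are not proteinases. Of its 7 tested genes 4 were higher and 1 lower in both. Those higher were the proteinase gene Bmp1, at 0.64 ± 0.15 and 0.50 ± 0.15, and Sfrp2, Pcolce and Pcolce2. The secreted frizzled-related gene Sfrp2 was at 3.39 ± 0.16 and 2.90 ± 0.16, and Pcolce, which enhances procollagen C-proteinase activity, at 1.10 ± 0.20 and 0.84 ± 0.20. The tolloid-like protease gene Tll2 was lower, at -1.88 ± 0.26 and -1.30 ± 0.26.

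Membrane and clearance regulators had 4 of 11 higher in air, and 3 higher and 2 lower in benzene. They included the membrane inhibitor gene Reck at 0.61 ± 0.13 in air (adjusted p = 0.00145) and the scavenger receptor gene Lrp1, which clears MMP and TIMP complexes, at 0.89 ± 0.14 and 0.69 ± 0.14. The listed ADAM genes, not all of which are sheddases, had 3 of 10 higher and 2 lower in air, and 3 higher and 1 lower in benzene. Adam12 was among those higher, at 1.78 ± 0.34 and 1.38 ± 0.31. Those lower were Adam22, at -0.67 ± 0.16 in air, and Adam23, at -0.92 ± 0.23 and -1.02 ± 0.22. Cathepsins and serine proteases had 4 of 14 higher and 2 lower in air, and 4 higher and 3 lower in benzene. The collagen-degrading cathepsin gene Ctsk was at 1.54 ± 0.16 and 1.12 ± 0.15, and the serine protease gene Htra1 at -0.58 ± 0.08 and -0.71 ± 0.08.

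With benzene in sham mice, 0 of the 38 genes were called by edgeR's quasi-likelihood test, where 0.0221% of all genes were called. At an unadjusted p under 0.05 there were 5 of 38, Adamts5, Adamtsl2, Mmp3, Timp1 and Timp3, beside 5.73% of all genes. Limma-voom called 0 and DESeq2 called 1, Mmp3 (adjusted p = 0.0267). Mmp3 had the largest difference of these 5, at 0.64 ± 0.15 (adjusted p = 0.201), with medians of 7.87 CPM (air) and 12.9 CPM (benzene) and overlapping ranges. Timp1 was at 0.63 ± 0.30, Adamtsl2 at 0.30 ± 0.14, Adamts5 at -0.42 ± 0.18 and Timp3 at -0.30 ± 0.14. Without Sham/Air replicate 1 these were 0.49, 0.20, -0.14 and -0.07 in the same order. This comparison shares the Sham/Air libraries with that of TAC in air, and the Sham/Benzene libraries with that of TAC in benzene.

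**Figure D4:**
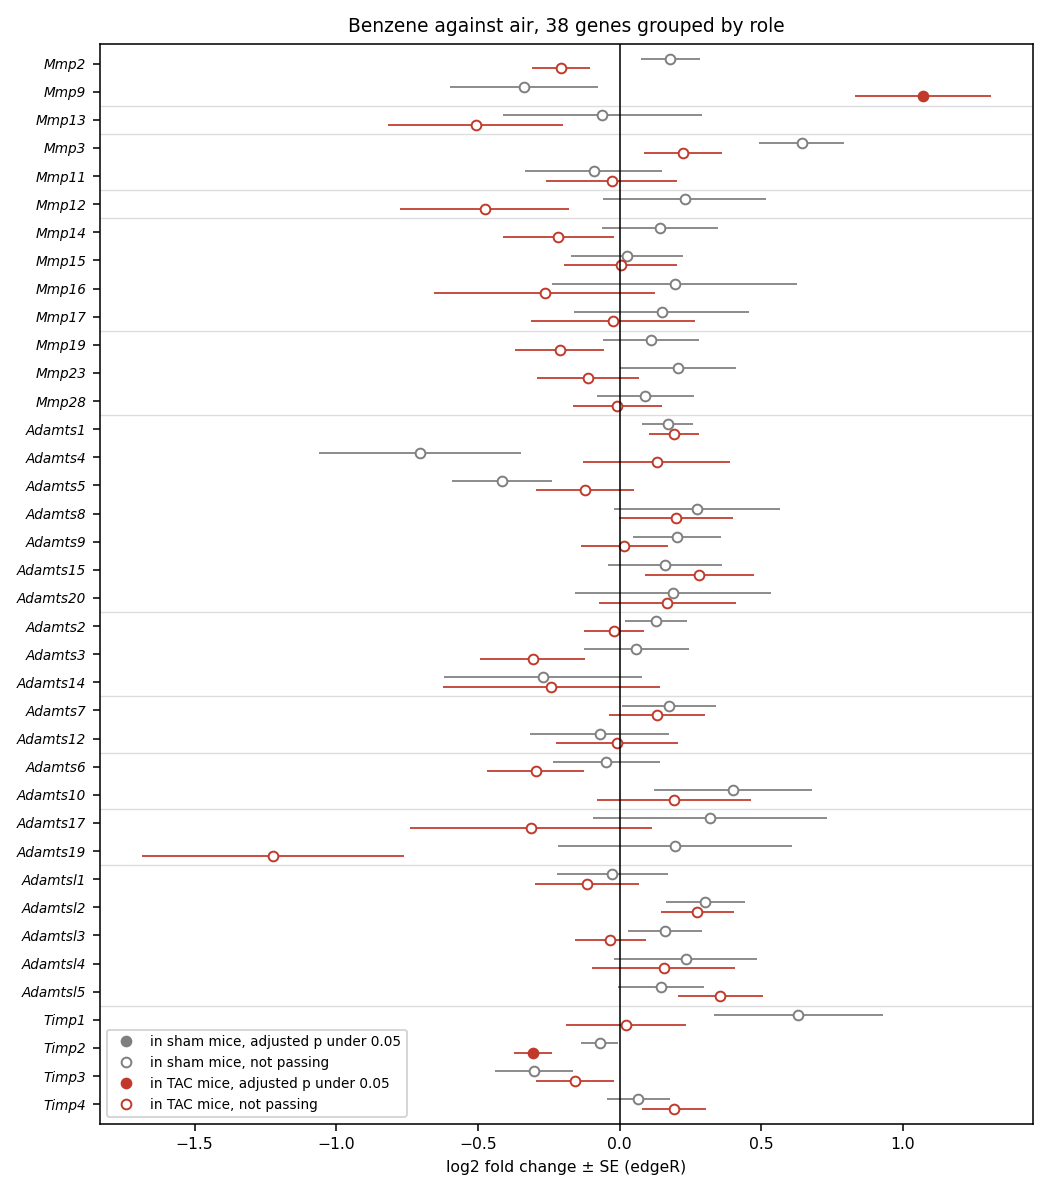
Log2 fold change of benzene against air for the 38 genes in the same order, in sham mice (grey) and in TAC mice (red). Points are edgeR estimates and bars standard errors, and filled points passed at an adjusted p under 0.05. The filled points are Mmp9, at 1.07, and Timp2, at -0.31, both in TAC mice.

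In TAC mice benzene went with more Mmp9 and less Timp2. These were 1 of 38 genes higher, beside 0.295% of all genes, and 1 of 38 lower, beside 0.287%. Mmp9 ran from 0.996 to 1.79 CPM in TAC/Air and from 1.66 to 4.17 CPM in TAC/Benzene, where 5 of 6 libraries were above every TAC/Air library. The difference was 1.07 ± 0.24 (adjusted p = 0.0313). It did not pass, at adjusted p = 0.0560 to 0.107, without TAC/Air replicate 1, 2, 3, 5 or 6 or TAC/Benzene replicate 2, 4, 5 or 6 in turn, with estimates of 0.96 to 1.10. Leaving out any single library kept it positive, between 0.96 and 1.2.

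Neutrophil markers moved with Mmp9. The summed level of 9 listed markers ran from 9.84 to 15.0 CPM in TAC/Air and from 42.6 to 52.3 CPM in TAC/Benzene, and from 10.6 to 14.6 and 7.12 to 21.8 CPM in Sham/Air and Sham/Benzene. All 5 tested markers were higher in TAC/Benzene than in TAC/Air, beside 0.295% of all genes. The defining markers Ly6g, Camp, Ltf and Ngp were each below a mean of 0.1 CPM. The part of the neutrophil markers in the Mmp9 result was not tested. Mmp25, another neutrophil MMP, averaged 2.00 counts per library and is not described.

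Timp2 ran from 248 to 265 CPM in TAC/Air and from 200 to 219 CPM in TAC/Benzene, with no overlap. The difference was -0.31 ± 0.07 (adjusted p = 0.0229). The call ended, at adjusted p = 0.0512 to 0.0845, without TAC/Air replicate 1, 3, 5 or 6 or TAC/Benzene replicate 1, 2, 3, 5 or 6 in turn, and the estimate then stayed between -0.31 and -0.29. It also ended with the replicate number as a block (adjusted p = 0.053), with offsets for GC content and length (adjusted p = 0.0532) and when every gene with counts was tested (adjusted p = 0.0925).

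Groups also did not overlap for Mmp2, Adamtsl2 and Adamtsl5 without these passing. With Timp2 this made 2 genes higher in TAC/Benzene, beside 1.5% of all genes, and 2 lower, beside 1.21%. Mmp2 was at 173 to 192 CPM in TAC/Benzene against 199 to 227 CPM in TAC/Air, a difference of -0.21 ± 0.10 (adjusted p = 0.815). Adamtsl2 was at 0.27 ± 0.13 (adjusted p = 0.770) and Adamtsl5 at 0.36 ± 0.15 (adjusted p = 0.633). Limma-voom called these 3 (adjusted p = 0.0166, 0.0141 and 0.00822), as did a fit of the TAC libraries alone (adjusted p = 0.0492, 0.0160 and 0.0126). This comparison shares the TAC/Air libraries with that of TAC in air, and the TAC/Benzene libraries with that of TAC in benzene. Both calls of Mmp9 thus use the same TAC/Benzene libraries.

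Whether TAC acted differently in benzene was tested as the interaction of surgery and exposure. It called 0 of the 38 genes, where 0.169% of all genes were called, and DESeq2 and limma-voom also called 0. At an unadjusted p under 0.05 there were 4 of 38, beside 4.69% of all genes. These were Mmp9 at 1.41 ± 0.35 (adjusted p = 0.170), Mmp2 at -0.39 ± 0.15 (adjusted p = 0.776), Timp2 at -0.24 ± 0.09 (adjusted p = 0.846) and Adamts19 at -1.42 ± 0.62 (adjusted p = 0.961). The passing of Mmp9, Mmp12, Adamts3 and Adamts19 in benzene and not in air is therefore not shown to be a difference between the exposures.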

How the data were processed

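The authors deposited 1 table of raw read counts per gene symbol, 1 column per library, not normalized. Tools listed, per the submitters' processing notes, are STAR, FastQC 0.11.9 and DESeq2, with build mm9. Counting program, annotation and strand setting: not given in the sources used here. Exons of Adamts4, Adamts7, Mmp11, Mmp12, Mmp19, Mmp28, Timp3 and Timp4 overlap a counted gene on the other strand in GENCODE vM21, so these counts are uncertain. Groups and replicate numbers came from the sample titles.

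Genes were filtered with edgeR 4.0.16 (R 4.3.3; minimum count 10, minimum total 15), scaled by TMM and tested by the robust quasi-likelihood test on all 24 libraries, with 1 coefficient per group. The SE is the absolute log2 fold change over the root of F. Alternatives were DESeq2 1.42.0, limma-voom (limma 3.58.1) with quality weights per sample, RLE scaling, no low-count filter, a minimum mean of 1 CPM, fits of the 2 groups alone, a block for replicate number, offsets for GC content and length (loess, span 0.5, fitted where the mean count reached 50) and each library left out. For 98.5% of tested symbols GENCODE vM21 gave both, from the longest transcript. Promoters are RefSeq's. CPM used TMM-scaled library sizes; the ratio of Sham/Air replicate 1 used log2 of CPM plus 0.5.

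All 38 genes are named, with library ranges for those called in any comparison. Genes and lists were chosen with earlier results of these data known. Some genes of the family and the lists are not reported here.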

Additional observations from a re-analysis of the deposited data

Results flagged for a closer look

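In 9 of 152 sets of 6 libraries (38 genes in 4 groups) the highest or lowest library stood apart from the rest by Dixon's criterion, and chance gives about 1 in 20. Of the 9, 8 were Sham/Air replicate 1. It was low in Mmp2 (43.5 CPM, next 74.3), Timp4 (33.8, next 53.5), Mmp19 (1.70, next 3.51), Adamts10 (0.852, next 23.8) and Adamts14 (0, next 1.52). It was high in Timp3 (977 CPM, next 513), Adamts5 (104, next 49.0) and Adamts6 (9.94, next 6.34). The ninth was Adamts9 in Sham/Benzene replicate 3 (60.8 CPM, next 33.6). The causes were not tested.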

How the results depend on the processing

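The counts of genes called after TAC stayed within 1.5 times of the main counts in every setting run: 14 to 22 of 38 in air (main 16) and 15 to 26 in benzene (main 19). Without 1 library the counts were 15 to 20 in air and 15 to 21 in benzene. In air 14 of the 16 genes were called in every setting that tested them, Adamts7 and Adamtsl5 being the exceptions, and in benzene 13 of 19, the exceptions being Adamts3, Adamts19, Mmp3, Mmp12, Mmp14 and Timp4. With offsets for GC content and length 16 genes were higher and 5 lower in air, beside 14 and 2, and over all genes 1624 higher and 2104 lower, beside 1195 and 998. Beyond the main calls, limma-voom, the offsets or a fit of the 2 groups alone also called Mmp15, Adamts9, Adamts10, Adamts14 and Adamtsl4 in both exposures, Adamtsl3 and Timp3 in air, and Mmp28, Adamts6, Adamts12 and Adamts17 in benzene, each in at least 1 of the 3. For benzene in TAC mice the count of 2 became 5 with limma-voom and with a fit of the TAC libraries alone, and 1 with no low-count filter, with the replicate block and with GC and length offsets. It was 0 to 2 without 1 library. Benzene in sham mice had 1 call with DESeq2 in place of 0. Timp3 after TAC in air changed sign with limma-voom, to 0.18 (adjusted p = 0.0242). The causes were not tested. Called genes over all 13571 also moved: TAC in air from 2193 to 3739 with limma-voom, 3728 with the offsets and 1278 with only the 2 groups, TAC in benzene from 2257 to 4497, 3648 and 3346, and benzene in TAC mice from 79 to 556, 233 and 276, with 164 by DESeq2 and 46 with the block. Without Sham/Air replicate 1, 3667 genes were called after TAC in benzene and 234 for benzene in TAC mice.

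The replicate numbers showed no pairing of the libraries. Deviations of each library from its group mean of log2 CPM were correlated between the groups of each pairwise comparison. For same-numbered libraries these correlations ran from -0.53 to 0.47, and for differently numbered libraries from -0.55 to 0.5. In 3 of 24 cases the best match had the same number, where a library can count in more than 1 comparison. As a block the replicate numbers gave 15 of 38 calls after TAC in air, 18 in benzene and 1 for benzene in TAC mice. They gave 0 for benzene in sham mice and for the interaction. Low counts limit Adamts19, Adamts17, Mmp12, Mmp13 and Mmp16, at means of 7.67 to 11.4 counts per library.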
